A study of Homo sapiens with 9 samples.

Results

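The genes described here encode proteins of the mitochondrial ribosome and carry MRPL symbols, for the large subunit, or MRPS symbols, for the small subunit. They were taken by symbol alone from a table of 58174 genes, and had to reach 1 TPM (a transcript level normalised for length and for the total of its library) in at least 3 of 9 libraries. All 78 genes with such a symbol passed, 49 MRPL and 29 MRPS, of 14118 genes that passed the same limit. The symbol rule and the limit used no value of a comparison, but this set of genes was chosen with earlier results of these data known.

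The libraries are total RNA of cells labelled HepG2, an established human line derived from a liver tumour. The 3 NFE2L1 libraries came from a line overexpressing NFE2L1, a membrane-anchored transcription factor known for activating proteasome genes. The 3 NFE2L1DC libraries came from a line overexpressing a form that the protocol writes with a delta before the C, whose extent the sources used here do not state. The 3 control libraries came from a line named after pLVX, a lentiviral vector, and have the genotype label WT. Each group is thus 1 line, and nothing in the labels says that its 3 libraries came from separate cultures, so the p-values measure the spread between these libraries, which may be technical. NFE2L1 itself averaged 247 ± 93.5 TPM in NFE2L1 libraries, 448 ± 22.9 TPM in NFE2L1DC libraries and 83.3 ± 20.2 TPM in control libraries (SD, n = 3 each), and a gene-level value does not separate the forms.

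The label HepG2 did not match the liver markers. Of 10 such markers, ALB, APOB, TTR, FGB and SERPINA1 were listed at 0 in all 9 libraries, and the highest value of any other was 0.238 TPM, for AFP. The summed liver markers lay between 0.0986 and 0.319 TPM in NFE2L1, 0.0578 and 0.227 TPM in NFE2L1DC, and 0.0452 and 0.142 TPM in control libraries. Of 7 markers of other cell types, COL3A1, COL1A1, CD68 and DCN were detected, PECAM1 and VWF stayed at or under 0.0841 TPM, and PTPRC was listed at 0. Their sum was 125 to 138 TPM in NFE2L1, 106 to 122 TPM in NFE2L1DC and 143 to 162 TPM in control libraries, and its part in the results below was not tested. In bulk RNA, fewer cells of a type and less RNA per cell cannot be told apart. Within the controls, replicate 3 differed from replicates 1 and 2 in a way that followed GC content. The Spearman correlation was -0.676 across 11445 protein-coding genes. Among all 9 libraries, however, control replicates 1 and 2 were the ones apart. Their median deviation from each gene's mean, over all genes tested on the log2 scale, was -0.152 and -0.170. It was 0.0728 in control replicate 3 and between -0.0285 and 0.0895 in the overexpression libraries. Counts of changed members, and those of most gene lists in NFE2L1, are also given without control replicate 3.

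Mitochondria keep their own ribosome, which translates the few proteins encoded in mitochondrial DNA, all of them subunits of the oxidative phosphorylation complexes. Its rRNAs are transcribed in the organelle, while all its proteins are encoded in the nucleus, made in the cytosol and imported. Some of these proteins belong to families shared with bacterial ribosomes and others are particular to mitochondria, and many inherited disorders of oxidative phosphorylation trace to one of them.

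All members were expressed, over a 98.7-fold range of mean level. The 49 large subunit genes had a median of 92.6 TPM, with MRPL24 at 469 TPM at the top and MRPL1 at 4.75 TPM at the bottom. The 29 small subunit genes had a median of 60.5 TPM, between MRPS18B at 379 TPM and MRPS31 at 10.3 TPM. In all, 35 of 78 members averaged at least 100 TPM and 6 averaged under 20 TPM. The 48 members of families shared with bacteria had a median of 101 TPM, against 63.9 TPM for the 29 that are particular to mitochondria, with MRPS36 in neither class.

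MRPL24, a protein at the rim of the exit tunnel, stood at 470, 468 and 475 TPM in NFE2L1, 457, 493 and 481 TPM in NFE2L1DC, and 477, 479 and 421 TPM in control libraries. MRPL12, a stalk protein that recruits translation factors and also binds the mitochondrial RNA polymerase, stood at 358, 386 and 386 TPM in NFE2L1, 361, 408 and 402 TPM in NFE2L1DC, and 374, 358 and 324 TPM in control libraries. For both genes the 3 groups overlapped. At the low end, MRPL1, part of the flexible stalk near the tRNA exit site, had 4.11, 5.21 and 6.43 TPM in NFE2L1, 5.38, 4.65 and 4.49 TPM in NFE2L1DC, and 3.64, 2.40 and 6.44 TPM in control libraries. Its control libraries alone spanned the values of the 6 others. Among the small subunit genes, MRPS34, a mitochondria-specific protein mutated in some patients with Leigh syndrome, had 295, 415 and 421 TPM in NFE2L1, 316, 330 and 337 TPM in NFE2L1DC, and 291, 289 and 236 TPM in control libraries. Every overexpression library lay above every control library for MRPS34, and the differences did not pass the test across all genes (adjusted p = 0.0653 in NFE2L1 and 0.283 in NFE2L1DC, limma).

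**Figure D1:**
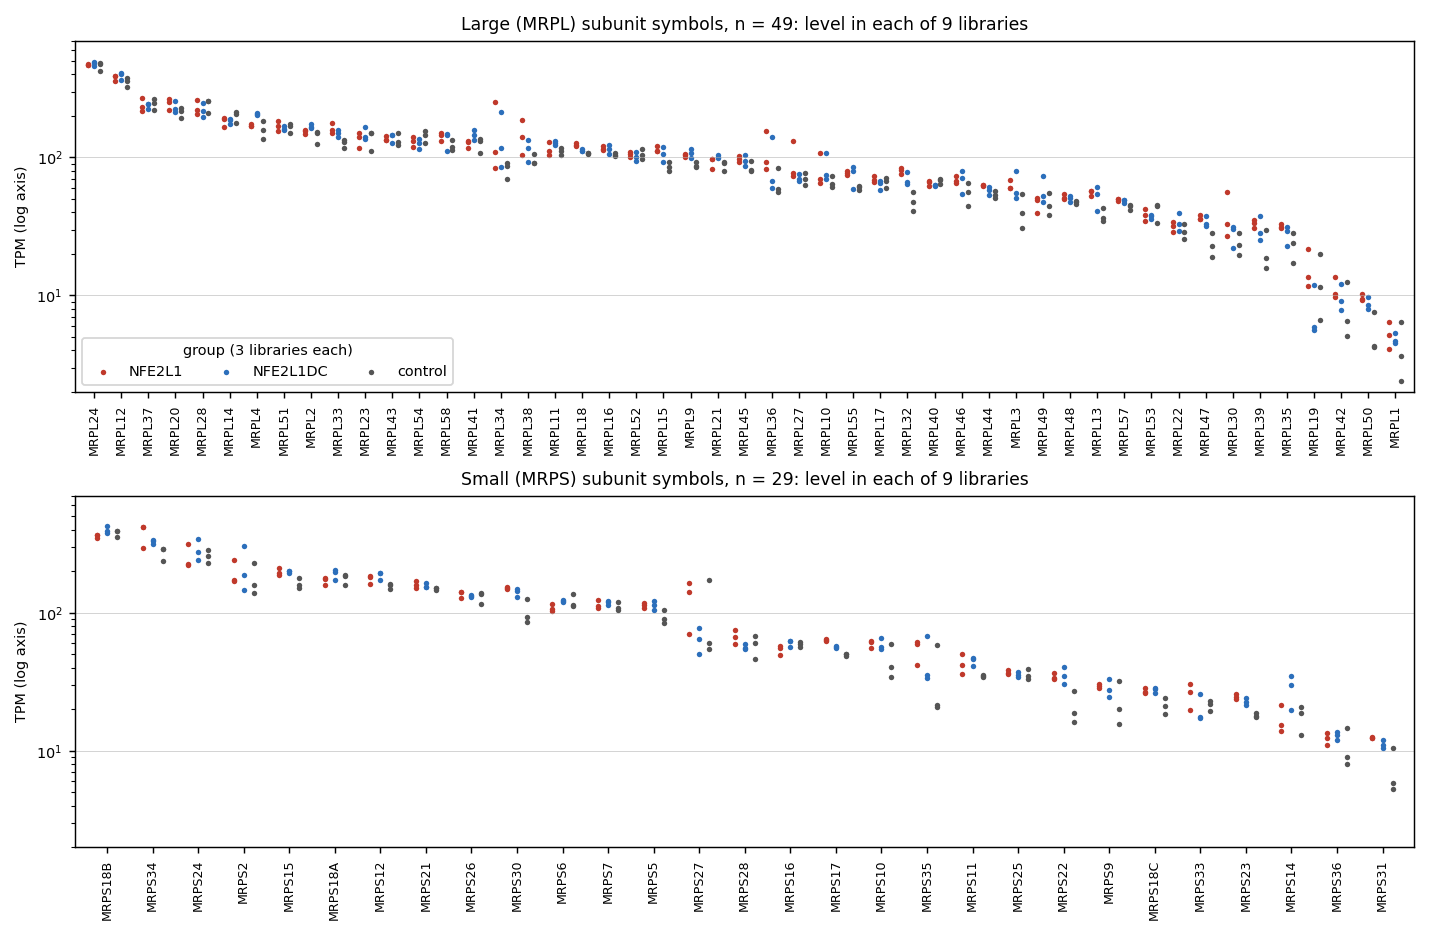
Level in TPM (log axis) of each of the 49 large subunit genes (top) and 29 small subunit genes (bottom), ordered by mean level, with 1 point per library and the groups side by side as NFE2L1, NFE2L1DC and control. Mean levels run between 469 TPM for MRPL24 and 4.75 TPM for MRPL1, and the libraries of a gene lie close together compared with that range.

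The symbols do not all say where the protein sits. MRPS30 and MRPS18A are found in the large subunit in structures of the mammalian ribosome, and MRPS36 is now known as a component of the 2-oxoglutarate dehydrogenase complex. MRPS18A, MRPS18B and MRPS18C descend from one bacterial family and each occupies its own place in the ribosome. Their levels differed widely. MRPS18B averaged 361 ± 9.21 TPM in NFE2L1, 399 ± 25 TPM in NFE2L1DC and 378 ± 23.4 TPM in control libraries (SD, n = 3 each). MRPS18A averaged 171 ± 10.7 TPM in NFE2L1, 191 ± 17.2 TPM in NFE2L1DC and 177 ± 15.3 TPM in control libraries. MRPS18C, the least abundant of the 3, had 28.3, 26.2 and 26.7 TPM in NFE2L1, 28.4, 26.3 and 27.8 TPM in NFE2L1DC, and 24.3, 18.4 and 21.3 TPM in control libraries. For MRPS18C alone of these 3 genes, all overexpression libraries lay above all control libraries, without passing the test (adjusted p = 0.0836 in NFE2L1 and 0.111 in NFE2L1DC). MRPS36 had 12.3, 13.5 and 11.1 TPM in NFE2L1, 13.8, 12 and 13 TPM in NFE2L1DC, and 7.99, 9.07 and 14.7 TPM in control libraries, where replicate 3 was the highest of all 9 libraries.

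Summed over the 78 genes, the level was 8204, 9030 and 8747 TPM in NFE2L1 libraries, 8438, 8378 and 8887 TPM in NFE2L1DC libraries, and 7820, 7877 and 7444 TPM in control libraries. The 3 controls were the 3 lowest libraries. As a share of all TPM this came to 0.866% ± 0.0419 in NFE2L1, 0.857% ± 0.0278 in NFE2L1DC and 0.771% ± 0.0235 in control libraries (SD, n = 3 each). The large subunit sum averaged 5457 ± 223 TPM in NFE2L1, 5375 ± 118 TPM in NFE2L1DC and 4876 ± 158 TPM in control libraries. The small subunit sum averaged 3203 ± 199 TPM in NFE2L1, 3193 ± 164 TPM in NFE2L1DC and 2837 ± 92.8 TPM in control libraries. Both sums were thus lowest in the controls. The ratio of the large to the small sum was 1.71 ± 0.0405 in NFE2L1, 1.68 ± 0.0510 in NFE2L1DC and 1.72 ± 0.0387 in control libraries, so the differences between groups were within the spread between libraries. With MRPS30 and MRPS18A counted as large and MRPS36 left out, the ratios were 2.02 in NFE2L1, 2.01 in NFE2L1DC and 2.02 in control libraries. These sums are dominated by the most abundant members and are descriptions without a test.

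**Figure D2:**
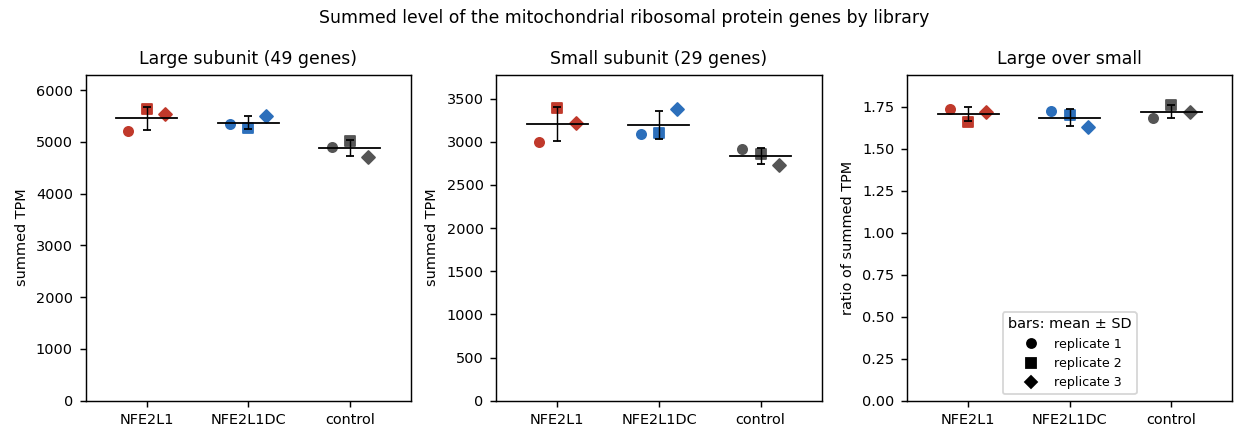
Summed TPM of the large subunit genes (left) and small subunit genes (middle) and the ratio of the sums (right) in each library, for NFE2L1, NFE2L1DC and control, with bars for the mean ± SD (n = 3). The overexpression means (5457 and 5375 TPM large, 3203 and 3193 TPM small) lie above the control means (4876 and 2837 TPM), while the ratio is 1.71 in NFE2L1, 1.68 in NFE2L1DC and 1.72 in control libraries.

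Against control, 11 of the 78 genes rose in NFE2L1 libraries and 0 fell, called at an adjusted p under 0.05 by limma over 14118 genes. The risen genes were MRPL13, MRPL15, MRPL32, MRPL33, MRPL47 and MRPL50 of the large subunit and MRPS17, MRPS22, MRPS23, MRPS30 and MRPS31 by MRPS symbol. They make up 14.1% of the members, where 7.83% of all genes tested rose and 2.57% fell. By unadjusted p under 0.05 in limma the shares were closer, with 26 members (33.3%) beside 30.4% of all genes tested. The median log2 fold change of the members was 0.21, with 65 of 78 above 0, and that of all genes tested was 0.17. In 27 members (34.6%) every NFE2L1 library lay above every control library, and in 0 every one lay below, where these shares were 22.6% and 9.53% over all genes tested. Scaled by median of ratios instead, all genes had a median of 0.01 and the members of 0.03, with 43 of 78 above 0, and 5 members rose, beside 3.84% of all genes.

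Of the large subunit genes, MRPL32 changed with the smallest adjusted p. It is a bacterial-type protein whose precursor is cut by the m-AAA protease before assembly in yeast and mouse. MRPL32 (ENSG00000106591, chr7:42932200-42948958, plus strand) had 83.5, 81.7 and 76.2 TPM in NFE2L1, 78.4, 66.4 and 63.9 TPM in NFE2L1DC, and 41.2, 47.4 and 56.2 TPM in control libraries. All 6 overexpression libraries lay above all 3 controls. The log2 fold change was 0.74 (SE 0.12, adjusted p = 0.00801) in NFE2L1 and 0.52 (SE 0.12, adjusted p = 0.0537) in NFE2L1DC libraries. Its exons share 24 bases, 0.679% of their length, with PSMA2, a proteasome subunit gene on the opposite strand. PSMA2 averaged 83.1 ± 23.9 TPM in NFE2L1, 89.6 ± 17.1 TPM in NFE2L1DC and 69.1 ± 17.8 TPM in control libraries (SD, n = 3 each; adjusted p = 0.472 in NFE2L1 and 0.362 in NFE2L1DC).

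MRPL47, at the exit of the tunnel, had 35.7, 38.0 and 36.1 TPM in NFE2L1, 37.3, 33.0 and 31.6 TPM in NFE2L1DC, and 18.9, 22.7 and 28.3 TPM in control libraries. Its log2 fold change in NFE2L1 was 0.65 (SE 0.14, adjusted p = 0.0219), and again no control reached any overexpression library. Its exons share 124 bases with ACTL6A on the opposite strand, itself higher in NFE2L1 at a log2 fold change of 0.38 (adjusted p = 0.0469). MRPL50, a mitochondria-specific protein and the member with the lowest GC content (34.96%), had 10.2, 9.29 and 9.37 TPM in NFE2L1, 9.71, 7.93 and 8.49 TPM in NFE2L1DC, and 4.27, 4.32 and 7.61 TPM in control libraries. Its log2 fold change of 0.77 (SE 0.20, adjusted p = 0.0402) was the highest of the large subunit genes. Control replicate 3 of MRPL50 lay well above the other controls and close to the lowest NFE2L1DC library. MRPL33 and MRPL15, both of bacterial families, rose by 0.35 and 0.41 (SE 0.09 and 0.10, adjusted p = 0.0360 and 0.0368), and MRPL13, of a family common to all ribosomes, by 0.54 (SE 0.15, adjusted p = 0.0484).

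Of the MRPS genes, MRPS17 had the smallest spread within groups of all 78 members. This core rRNA-binding protein had 61.9, 63.8 and 64.5 TPM in NFE2L1, 55.9, 57.1 and 56.8 TPM in NFE2L1DC, and 48.4, 50.4 and 50.1 TPM in control libraries. The 3 groups were fully separated, with NFE2L1DC between the others, and the log2 fold change in NFE2L1 was 0.35 (SE 0.07, adjusted p = 0.0176). MRPS30, which sits in the large subunit, had 152, 149 and 153 TPM in NFE2L1, 149, 130 and 143 TPM in NFE2L1DC, and 85.5, 93.4 and 125 TPM in control libraries. Its log2 fold change was 0.59 (SE 0.13, adjusted p = 0.0219), and control replicate 3 was nearest to the overexpression libraries. MRPS23, a mitochondria-specific protein, had 24.4, 26 and 23.5 TPM in NFE2L1, 23.9, 22.6 and 21.3 TPM in NFE2L1DC, and 18, 17.6 and 18.8 TPM in control libraries. Here the controls lay close together, and the log2 fold change was 0.42 (SE 0.10, adjusted p = 0.0263).

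MRPS22, mutated in some inherited mitochondrial disorders, had 33.2, 36.3 and 33.8 TPM in NFE2L1, 40.4, 30.3 and 34.8 TPM in NFE2L1DC, and 16.1, 18.7 and 27.2 TPM in control libraries. Both overexpression lines lay above the controls, by 0.74 in NFE2L1 (SE 0.18, adjusted p = 0.0334) and 0.76 in NFE2L1DC libraries (SE 0.18, adjusted p = 0.0537) on the log2 scale. Exons of MRPS22 share 86 bases, 1.60% of their length, with COPB2 on the opposite strand. COPB2 had log2 fold changes of 0.73 in NFE2L1 (SE 0.28, adjusted p = 0.123) and 0.51 in NFE2L1DC (SE 0.28, adjusted p = 0.322). Its control libraries had 24.5, 26.5 and 56.7 TPM, and the part of this overlap was not tested. MRPS31, a mitochondria-specific protein, had 12.3, 12.3 and 12.5 TPM in NFE2L1, 12.1, 11 and 10.5 TPM in NFE2L1DC, and 5.27, 5.87 and 10.5 TPM in control libraries. Its log2 fold change of 0.76 (SE 0.21) passed narrowly at an adjusted p of 0.0498, and control replicate 3 reached the level of the NFE2L1DC libraries. The highest log2 fold change of any member, 0.82 for the mitochondria-specific MRPS35, did not pass (SE 0.40, adjusted p = 0.197): it had 41.5, 61.3 and 59.2 TPM in NFE2L1, 67.6, 33.9 and 35.4 TPM in NFE2L1DC, and 21.5, 20.6 and 58.7 TPM in control libraries. Replicate 3 was again the control that stood apart.

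**Figure D3:**
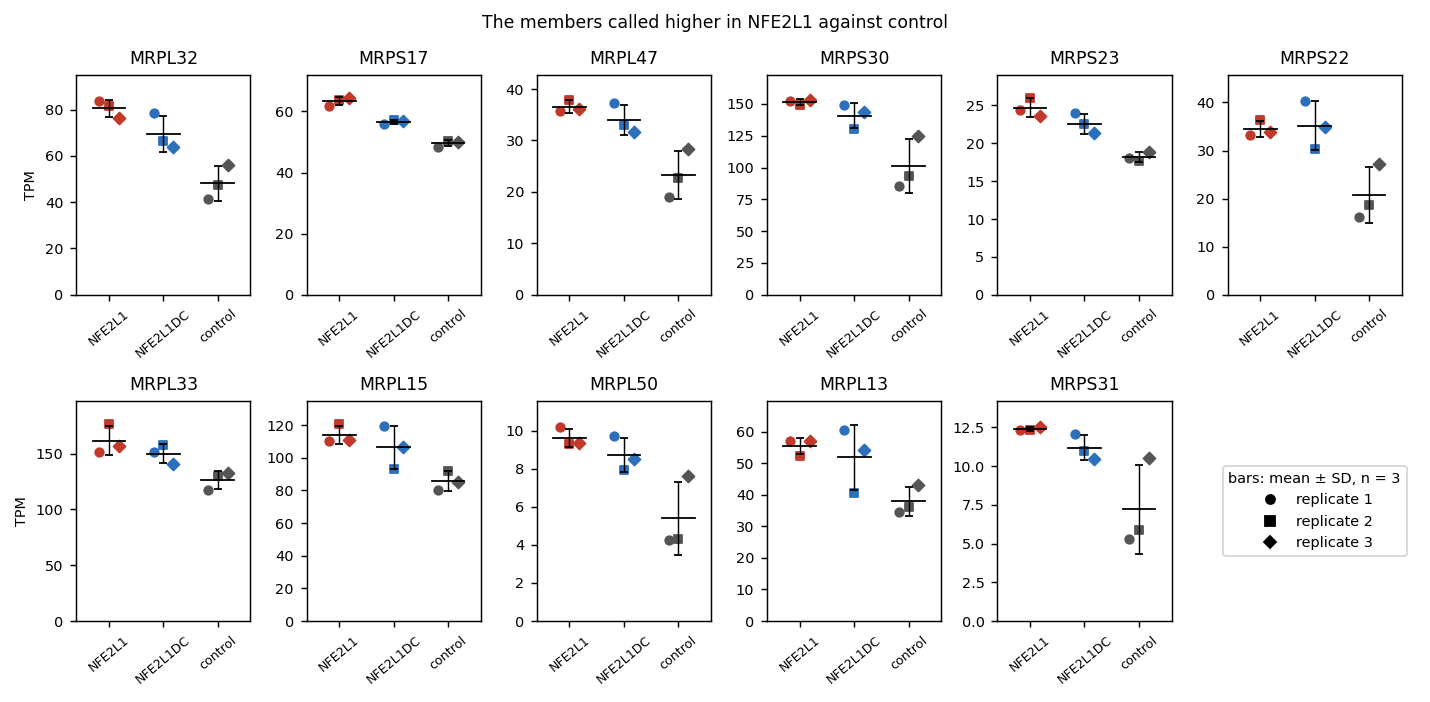
TPM of the 11 members that rose in NFE2L1 against control, 1 point per library with the replicate number as its shape and bars for the mean ± SD (n = 3), for NFE2L1, NFE2L1DC and control. Every NFE2L1 library lies above every control library in each panel, and control replicate 3 is the highest control in all panels but MRPL15 and MRPS17.

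The lowest log2 fold changes in NFE2L1 were small and none passed: -0.13 for MRPL54 (adjusted p = 0.408) and MRPL14 (adjusted p = 0.359), -0.15 for MRPS6 (adjusted p = 0.303) and -0.14 for MRPS16 (adjusted p = 0.318). MRPL14, the docking site of the assembly factor MALSU1, had 166, 192 and 188 TPM in NFE2L1, 175, 190 and 187 TPM in NFE2L1DC, and 207, 213 and 178 TPM in control libraries. MRPL54 had 118, 141 and 130 TPM in NFE2L1, 115, 136 and 128 TPM in NFE2L1DC, and 147, 155 and 127 TPM in control libraries. In both genes control replicate 3 was the lowest control and lay among the overexpression libraries. MRPS6 averaged 109 ± 6.75 TPM in NFE2L1, 122 ± 1.60 TPM in NFE2L1DC and 121 ± 13.8 TPM in control libraries, and MRPS16 averaged 54.0 ± 4.06 TPM in NFE2L1, 60.5 ± 3.81 TPM in NFE2L1DC and 59.4 ± 2.48 TPM in control libraries (SD, n = 3 each), where each overexpression group overlapped the controls.

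In NFE2L1DC libraries 0 of the 78 genes rose or fell against control by limma, and no other tool was run. An unadjusted p under 0.05 was reached by 25 members (32.1%), beside 21.7% of all genes tested. Of all genes tested, 2.06% rose and 1.54% fell in this comparison. The median log2 fold change of the members was 0.22, with 65 of 78 above 0, against 0.12 over all genes tested. Every NFE2L1DC library lay above every control library in 23 members (29.5%, beside 13.7% of all genes) and below in 1, MRPL40 (beside 8.98%). MRPL40, a mitochondria-specific protein, had 67.2, 66.2 and 62.3 TPM in NFE2L1, 62.9, 62.9 and 61.8 TPM in NFE2L1DC, and 64.3, 68.7 and 69.7 TPM in control libraries, a narrow separation at a log2 fold change of -0.11 (adjusted p = 0.407). MRPL4, which lines the exit tunnel, had 168, 170 and 174 TPM in NFE2L1, 208, 204 and 207 TPM in NFE2L1DC, and 182, 135 and 157 TPM in control libraries. It was higher in NFE2L1DC than in all 6 other libraries, at a log2 fold change against control of 0.39 (SE 0.10, adjusted p = 0.0633). MRPS14, another rRNA-binding protein, had 21.5, 15.3 and 13.8 TPM in NFE2L1, 30.2, 19.6 and 34.7 TPM in NFE2L1DC, and 18.9, 12.9 and 20.7 TPM in control libraries, and its groups overlapped (log2 fold change 0.65, SE 0.25, adjusted p = 0.177). Both overexpression comparisons use the same 3 control libraries, so their member values are not independent of each other.

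Between the overexpression lines, 0 of 78 members passed by limma and 4 (5.13%) had an unadjusted p under 0.05, beside 8.19% of all genes tested, a smaller share. By adjusted p, 0.715% of all genes tested were higher and 0.0779% lower in NFE2L1 than in NFE2L1DC. The members' median log2 fold change was 0.04, beside 0.06 over all genes. Their values are given as a description. They were MRPL19 and MRPS17, higher in NFE2L1 by 0.95 (SE 0.39, adjusted p = 0.569) and 0.16 (SE 0.07, adjusted p = 0.599), and MRPL4 and MRPS14, lower in NFE2L1 by 0.27 (SE 0.10, adjusted p = 0.486) and 0.69 (SE 0.25, adjusted p = 0.482) on the log2 scale. MRPL19 had 21.8, 13.7 and 11.7 TPM in NFE2L1, 5.89, 5.62 and 11.9 TPM in NFE2L1DC, and 6.63, 11.5 and 20.02 TPM in control libraries, so its controls alone spanned most of that range.

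**Figure D4:**
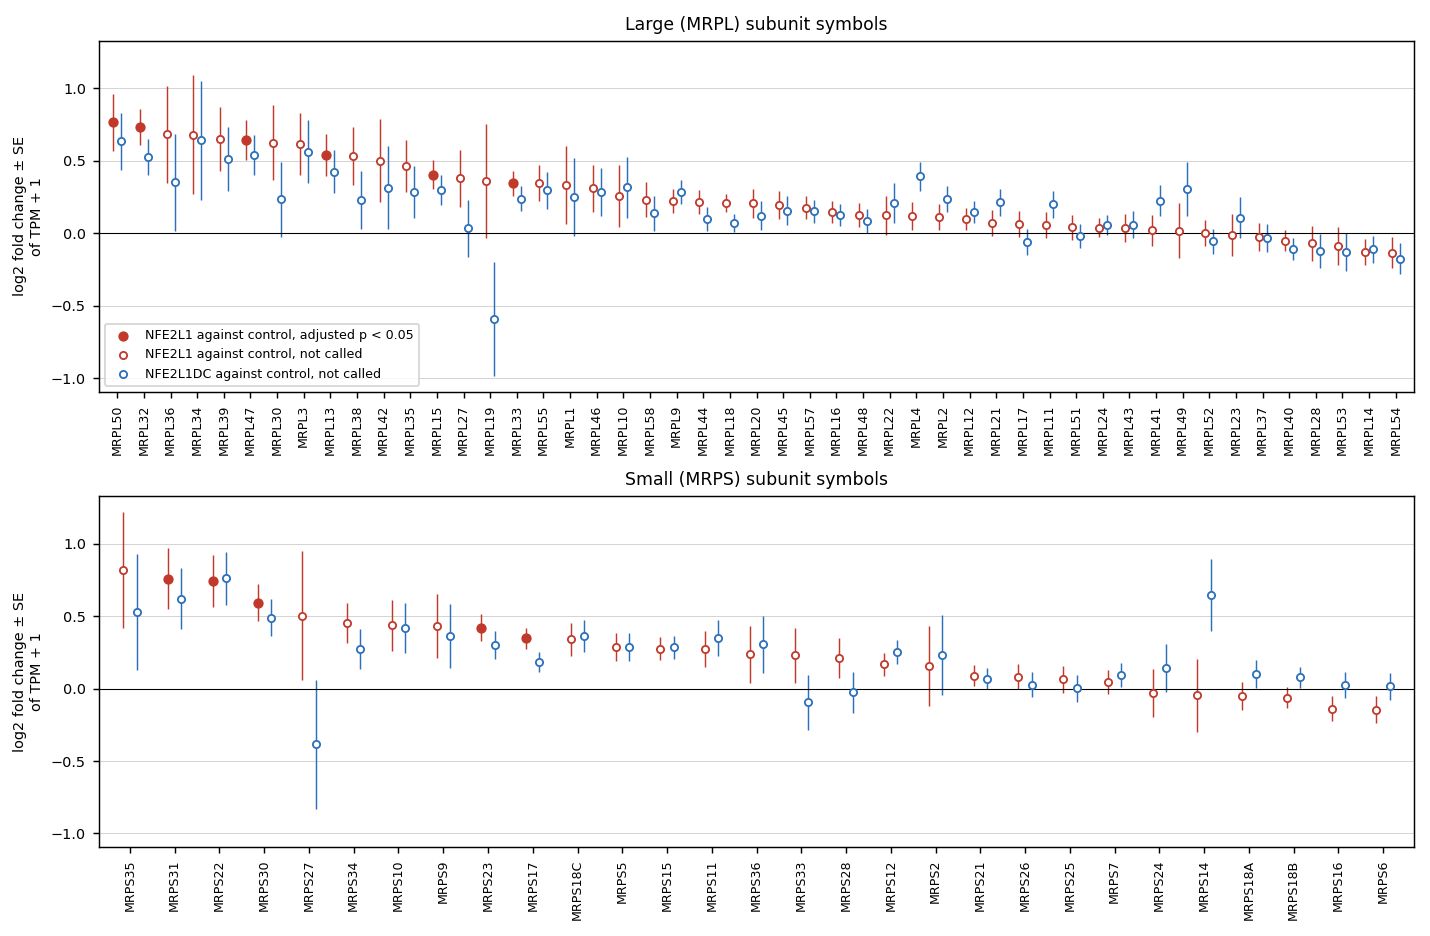
Log2 fold change of log2(TPM + 1) against control for each member, large subunit genes on top and small subunit genes below, ordered by the NFE2L1 value, with bars of ± 1 SE, for NFE2L1 (left point of each pair) and NFE2L1DC (right point). Filled points are the 11 that rose in NFE2L1, and 65 of 78 points of each line lie above 0.

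Large and small subunit genes were set against each other by counts and medians. In NFE2L1, 6 of 49 MRPL and 5 of 29 MRPS genes rose, and their median log2 fold changes were 0.21 and 0.24. In NFE2L1DC the medians were 0.21 and 0.25. Between the overexpression lines they were 0.05 and 0.00. The difference of the medians, large minus small, was -0.03 in NFE2L1 and -0.045 in NFE2L1DC when set against control, and 0.054 between the overexpression lines, NFE2L1 minus NFE2L1DC. The SD of this difference between single libraries of 1 group was 0.0435 on uncorrected values, so -0.03 lay under it and the other values slightly above. Most of that spread came from the controls, and it is not the error of a difference between group means. With the correction for GC content and transcript length the differences were -0.084, -0.074 and 0.065. The spread between corrected libraries was not computed, so whether these exceed it is not known. By library, large minus small was 0.01, -0.03 and -0.02 in NFE2L1, -0.01, -0.01 and -0.02 in NFE2L1DC, and -0.05, 0.09 and -0.01 in control libraries, as medians of deviations from each gene's mean. The controls enclosed the 6 other libraries. No test was made of these differences. Counting MRPS30 and MRPS18A as large and leaving out MRPS36 made it 7 of 51 and 4 of 26 risen. By family, 6 of 48 members shared with bacteria rose in NFE2L1 and 5 of 29 mitochondria-specific ones, with medians of 0.21 and 0.22.

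The changes followed the base composition of the transcripts and the choice of control library. Across the 78 members the log2 fold change fell with transcript GC content, with a Spearman rho of -0.511 in NFE2L1 and -0.348 in NFE2L1DC. Across 11445 protein-coding genes the rho was -0.447 and -0.372, so this trend was not particular to the members. Control replicate 3 minus the mean of the other controls also fell with GC content, with a rho of -0.725 across members and -0.676 across those genes. These are correlations across genes, which share libraries and are not independent. The 26 members of lowest GC content (34.96 to 46.45%) had a median log2 fold change of 0.45 in NFE2L1 and 0.34 in NFE2L1DC and held 8 of the 11 that rose. The next 26 (46.47 to 54.05%) had medians of 0.21 and 0.13 and held 3, and the 26 of highest GC content (54.14 to 71.95%) had medians of 0.04 and 0.15 and held 0. Shares of all genes risen in these GC ranges were not computed. Members of low GC content were also the less abundant ones, with a rho of 0.729 between GC content and mean log2(TPM + 1).

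Against control replicates 1 and 2, the low-GC members lay a median of 0.64 higher in NFE2L1 and 0.55 higher in NFE2L1DC, and against control replicate 3 they lay 0.17 and 0.03 higher. The high-GC members showed the reverse order, with -0.01 and 0.07 against replicates 1 and 2 and 0.17 and 0.26 against replicate 3. The rho with GC content was -0.609 in NFE2L1 and -0.492 in NFE2L1DC against the first 2 controls, and 0.172 and 0.475 against control replicate 3. Whether GC-dependent library preparation, RNA quality or the cells themselves set replicate 3 apart from control replicates 1 and 2 was not tested.

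**Figure D5:**
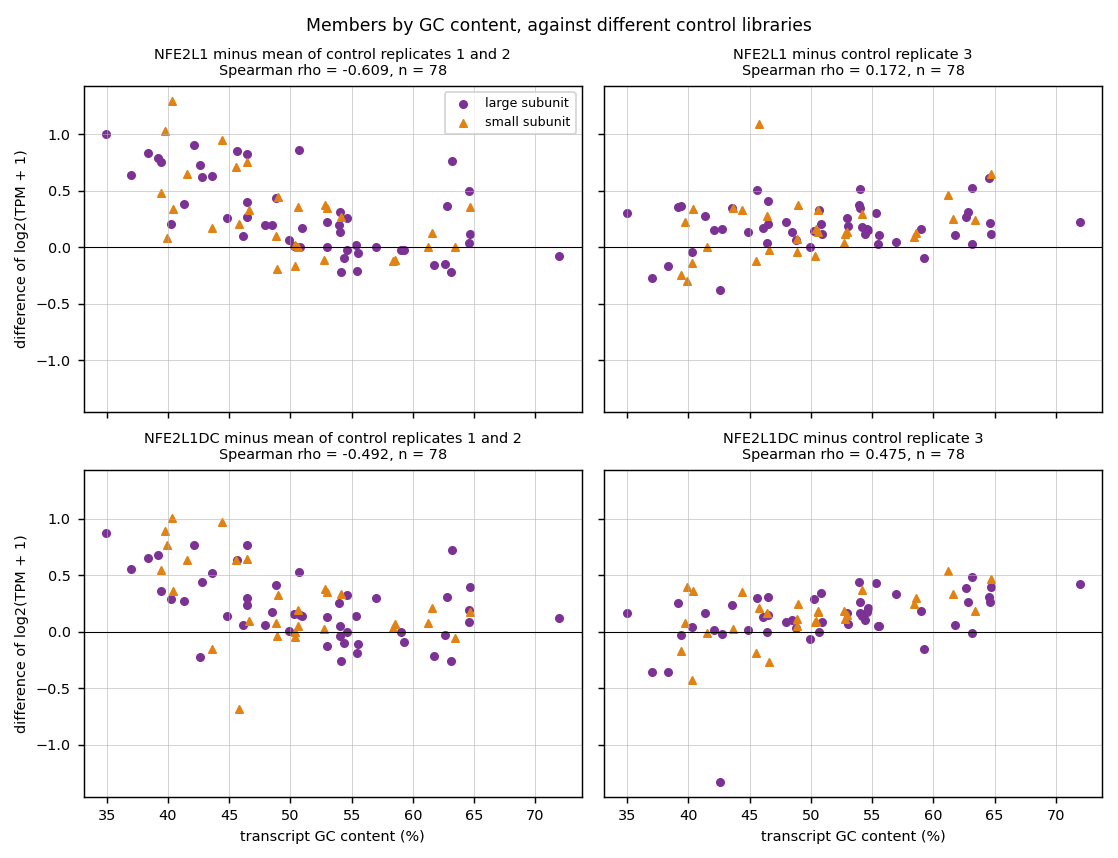
Difference of log2(TPM + 1) for each of the 78 members against transcript GC content (%), for NFE2L1 (top) and NFE2L1DC (bottom), set against the mean of control replicates 1 and 2 (left) and against control replicate 3 alone (right), with large and small subunit genes marked. The slope on the left (rho -0.609 and -0.492) is turned on the right (rho 0.172 and 0.475).

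The count of risen members depended on these libraries. Without control replicate 3, 25 members (32.05%) rose in NFE2L1 and 18 (23.08%) in NFE2L1DC, near the 30.1% and 20.1% of all genes tested. The members' medians in that fit were 0.207 and 0.174, below the 0.237 and 0.184 of all genes. With control replicate 3 as the only control, an alternative chosen after seeing the data in which the lone library is assumed to vary like the other groups, 0 rose in either line, beside 1.64% and 0.333% of all genes. With replicate 3 as the only control, the members' medians were 0.16 and 0.17, where those of all genes were -0.01 and -0.06. Leaving out control replicate 1 or 2 left 1 member risen in NFE2L1 in each case (beside 3.34% and 2.72% of all genes), and leaving out NFE2L1 replicate 1, 2 or 3 left 2, 1 and 1 (beside 2.86%, 2.95% and 2.81%). Without NFE2L1DC replicate 3, 7 rose in NFE2L1 (beside 5.55%). With no filter on low values, with the libraries of the 2 groups only and with the replicate number as a block, 4, 5 and 3 members rose in NFE2L1 (5.13%, 6.41% and 3.85%), beside 2.31%, 4.39% and 4.58% of all genes tested in those fits. In NFE2L1DC, 1 member rose without control replicate 1 (beside 0.921%) and 1 without NFE2L1DC replicate 2 (beside 1.62%). There, 2 rose with a filter at 5 TPM (beside 3.75%), 1 under median-of-ratios scaling (beside 0.843%), 0 with the block (beside 0.779%) and 1 with the block and the correction described next (beside 1.88%). After each library was corrected for GC content and transcript length, 15 members rose in NFE2L1 and 9 in NFE2L1DC, beside 11.2% and 3.59% of all genes tested, and 74 and 72 of 78 members lay above 0. That correction made calls of abundant GC-rich members such as MRPL12 (log2 fold change 0.33 in NFE2L1 and 0.32 in NFE2L1DC, adjusted p = 0.0217 and 0.0420) and MRPS34 (0.68 in NFE2L1, adjusted p = 0.00660), and lost those of MRPL13, MRPL15 and MRPL33 (adjusted p = 0.0932, 0.0689 and 0.151).

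MRPL32 was called in 18 of the 19 alternatives, where its log2 fold change ranged between 0.51 and 0.85, and only with control replicate 3 as the lone control did it miss (adjusted p = 0.132). MRPS17 was called in 12, MRPS30 in 11, MRPL47 and MRPS23 in 10 and MRPS22 in 9 of them. MRPL15 and MRPL50 were called in 7, MRPL13 and MRPL33 in 6 and MRPS31 in 5. In none of these 19 fits did any of the 11 change direction.

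The members with the widest spread within groups are given next, picked after their values were seen. MRPS27, an RNA-binding protein with pentatricopeptide repeats, had 141, 165 and 70.1 TPM in NFE2L1, 77.9, 50.1 and 64.8 TPM in NFE2L1DC, and 173, 60.0 and 54.7 TPM in control libraries. High and low values occurred side by side within the NFE2L1 and the control group. MRPL34 had 109, 251 and 84.2 TPM in NFE2L1, 116, 85.3 and 214 TPM in NFE2L1DC, and 69.5, 86.7 and 91.4 TPM in control libraries. One library of each overexpression line stood far above the other 2 in MRPL34, and the log2 fold changes of 0.68 and 0.64 had an SE of 0.41. The within-group SD on the log2 scale was 0.67 for MRPS27 and 0.62 for MRPL34, against 0.026 for MRPS17. Exons of MRPS27 overlap those of PTCD2 and exons of MRPL34 those of ABHD8, both on the opposite strand, and the part of this overlap in the spread was not tested.

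4 further members were among the extremes of a subunit in the comparison of the overexpression lines. MRPL30, an rRNA-binding protein, averaged 38.6 ± 15.3 TPM in NFE2L1, 28.1 ± 5.08 TPM in NFE2L1DC and 23.7 ± 4.37 TPM in control libraries, and MRPL49 averaged 46.5 ± 6.19 TPM in NFE2L1, 57.7 ± 13.7 TPM in NFE2L1DC and 46.1 ± 8.58 TPM in control libraries (SD, n = 3 each). MRPS24, near the entry of the mRNA channel, averaged 254 ± 54.1 TPM in NFE2L1, 286 ± 50.9 TPM in NFE2L1DC and 257 ± 27.0 TPM in control libraries. MRPS33 averaged 25.6 ± 5.32 TPM in NFE2L1, 20.3 ± 4.90 TPM in NFE2L1DC and 21.4 ± 1.72 TPM in control libraries. In all 4 the groups overlapped and no comparison passed.

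Other genes of mitochondrial gene expression were followed as lists. Of 15 mitochondrially encoded RNAs, 6 (40%) fell and 0 rose in NFE2L1, beside 2.57% and 7.83% of all genes tested. The median log2 fold change of the 15 was -0.25, a sign kept under median-of-ratios scaling (-0.43). Both rRNAs were among the 6 that fell. MT-RNR1, the rRNA of the small subunit, had 907, 825 and 790 TPM in NFE2L1, 995, 1174 and 994 TPM in NFE2L1DC, and 1023, 1088 and 1222 TPM in control libraries, a log2 fold change of -0.40 in NFE2L1 (SE 0.09, adjusted p = 0.0287). MT-RNR2, the rRNA of the large subunit, had 3274, 2986 and 3172 TPM in NFE2L1, 3720, 3686 and 3133 TPM in NFE2L1DC, and 4044, 4056 and 5682 TPM in control libraries, a log2 fold change of -0.53 in NFE2L1 (SE 0.13, adjusted p = 0.0334). All NFE2L1 libraries lay below all controls for both, with control replicate 3 the highest. Without replicate 3, 6 of the 15 RNAs fell in NFE2L1, at a median of -0.208, beside 5.69% of all genes tested. With replicate 3 as the only control the median was -0.21. In NFE2L1DC 1 of 15 (6.67%) fell, beside 1.54% of all genes tested. It was MT-ND3, a subunit of respiratory complex I, with 3853 ± 233 TPM against 4808 ± 115 TPM in control libraries (SD, n = 3 each; log2 fold change -0.32, adjusted p = 0.0284). MT-ND3 fell in NFE2L1 as well, to 3600 ± 195 TPM (log2 fold change -0.42, adjusted p = 0.00423).

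Of 37 genes for ribosome assembly and rRNA processing in mitochondria, 5 (13.5%) rose and 0 fell in NFE2L1, beside 7.83% and 2.57% of all genes tested. In NFE2L1DC 4 (10.8%) rose and 0 fell, beside 2.06% and 1.54%. The list's median log2 fold changes were 0.23 and 0.33, and 0.06 and 0.21 under median-of-ratios scaling. Under that scaling 1 gene of the list, NSUN4, rose in each line, beside 3.84% and 0.843% of all genes. NGRN, which binds the large rRNA, averaged 89.2 ± 4.05 TPM in NFE2L1 and 67.6 ± 2.97 TPM in control libraries (SD, n = 3 each; adjusted p = 0.0118). NSUN4, a methyltransferase of the small rRNA, averaged 14.9 ± 1.34 TPM in NFE2L1, 15.2 ± 1.66 TPM in NFE2L1DC and 9.03 ± 1.27 TPM in control libraries and rose in both lines (adjusted p = 0.0192 and 0.0334). ERAL1, a chaperone of the small rRNA, had 68.9, 69.7 and 69.5 TPM in NFE2L1DC and 52.3, 53.5 and 51.4 TPM in control libraries (log2 fold change 0.40, adjusted p = 0.0419). SLIRP, a partner of LRPPRC on mitochondrial mRNAs, rose in both lines too (log2 fold change 0.40 and 0.41, adjusted p = 0.0146 and 0.0263), ELAC2, which trims tRNA ends, in NFE2L1 (0.42, adjusted p = 0.0235) and SUPV3L1, an RNA helicase, in NFE2L1DC (0.54, adjusted p = 0.0498).

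Among 17 genes of mitochondrial transcription and biogenesis, 5 (29.4%) rose in NFE2L1 and 1 (5.88%) in NFE2L1DC, beside 7.83% and 2.06% of all genes tested. The medians of this list were 0.38 and 0.32. Under median-of-ratios scaling 0 of them rose in either line, beside 3.84% and 0.843% of all genes, at medians of 0.25 and 0.22. The calls named next are those on TPM as deposited. POLRMT, the mitochondrial RNA polymerase, averaged 42.4 ± 0.599 TPM in NFE2L1, 41.4 ± 1.03 TPM in NFE2L1DC and 29.8 ± 3.04 TPM in control libraries (SD, n = 3 each) and rose in both (adjusted p = 0.0121 and 0.0322). The helicase TWNK, the DNA-binding protein SSBP1 and the coactivator PPRC1 rose in NFE2L1 by 0.55, 0.36 and 0.38 (adjusted p = 0.00905, 0.0430 and 0.0471). Of 16 translation factors and related proteins, 1 (6.25%) rose in both lines, beside 7.83% and 2.06% of all genes tested. It was LETM1, an inner membrane protein (0.37 and 0.42, adjusted p = 0.0414 and 0.0489). Of 20 genes for aminoacyl-tRNA synthesis, MARS2 and QRSL1 (10%) rose in NFE2L1 (0.69 and 0.71, adjusted p = 0.0150 and 0.0467) and 0 in NFE2L1DC. Both shares in NFE2L1 were near that of all genes. The aminoacyl-tRNA median in NFE2L1 was 0.16, beside 0.17 over all genes. The translation median was higher, 0.33 in NFE2L1 and 0.23 in NFE2L1DC, beside 0.17 and 0.12 over all genes. Under median-of-ratios scaling it was 0.15 and 0.11, beside 0.014 and 0.016. Under median-of-ratios scaling 0 translation genes and 1 aminoacyl-tRNA gene rose in NFE2L1. Of 5 mitochondrial ribosomal proteins with other symbols, 0 passed in either line, at medians of 0.09 and 0.15, where the NFE2L1 value turns to -0.09 under median-of-ratios scaling. Without control replicate 3, 40.5% of assembly, 43.8% of translation, 30% of aminoacyl-tRNA and 70.6% of transcription and biogenesis genes rose in NFE2L1, beside 30.1% of all genes tested. With replicate 3 as the only control, the medians in NFE2L1 were 0.17 for assembly, -0.02 for translation, 0.01 for aminoacyl-tRNA and 0.23 for transcription and biogenesis genes, beside -0.01 over all genes.

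The 79 cytosolic ribosomal protein genes did not follow the mitochondrial ones: 12 (15.2%) fell and 0 rose in NFE2L1, beside 2.57% and 7.83% of all genes tested. Their median log2 fold change was -0.17 (-0.35 under median-of-ratios scaling). In NFE2L1DC 2 (2.53%) fell and 0 rose, beside 1.54% and 2.06% of all genes, with a median of -0.12. RPLP0, of the ribosomal stalk, averaged 2163 ± 116 TPM in NFE2L1 and 3044 ± 225 TPM in control libraries (SD, n = 3 each; log2 fold change -0.49, adjusted p = 0.0128). These genes take a large share of each library's TPM. Without control replicate 3, 35 (44.3%) fell and 4 (5.06%) rose in NFE2L1, beside 5.69% and 30.1% of all genes tested. With it as the only control 0 passed in NFE2L1, at a median of -0.095, in a fit that called 0.538% of all genes lower.

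The members lie on 21 chromosomes. In GENCODE 29, 17 of 78 (21.8%) have a protein-coding neighbour on the opposite strand whose start lies within 1000 bases upstream, against 1175 of 11445 protein-coding genes tested (10.3%). MRPL46 and MRPS11 are such a pair with each other, their starts 34 bases apart on chromosome 15, so that a gene of each subunit shares 1 promoter region. MRPL46 averaged 68.3 ± 4.04 TPM in NFE2L1, 67.9 ± 12.8 TPM in NFE2L1DC and 55.5 ± 10.4 TPM in control libraries, and MRPS11 averaged 42.9 ± 7.26 TPM in NFE2L1, 44.9 ± 3.20 TPM in NFE2L1DC and 35.0 ± 0.508 TPM in control libraries (SD, n = 3 each). For MRPS11, every overexpression library lay above every control. Neither passed in any comparison (adjusted p between 0.146 and 0.989).

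Promoter windows of 300 bases, 250 before and 50 after the start in RefSeq (GRCh38.p14), were found for 69 of the 78 members, and 4 motif cores were searched on both strands. CCGGAAG, a core bound by ETS factors such as GABP, a known regulator of mitochondrial genes, was present in 29 of 69 (42.0%), against 20.5% of the 9008 tested genes with a window and 10.3% of all 35116 windows. It was found in 17 of 42 large and 12 of 27 small subunit windows. AAGATGGCG, the YY1 core, was present in 13 (18.8%, against 4.27% and 1.75%), and GCGCATGC, the NRF1 core, in 6 (8.70%, against 5.95% and 3.05%). TGACNNNGC, the core of the antioxidant response element that NFE2L1 and its relatives bind, was present in 9 (13%, against 15.6% and 13.4%). Matches of different motifs did not overlap in a member's window, while in that of MRPL17 a pair of NRF1 cores on opposite strands share 6 bases. A match describes letters in the window, not binding.

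The windows below show these letters in capitals: that of MRPL32, called in most alternative fits, that of MRPS30, that of MRPS22 with 3 ETS cores, and that of MRPL46, which holds the GENCODE start of MRPS11. MRPL32 lies in chr7:42932126-42932425 (plus strand), with a YY1 and an NRF1 core. MRPS30 lies in chr5:44808697-44808996 (plus strand) and MRPL46 in chr15:88467339-88467638 (minus strand), each with a YY1 core. MRPS22 lies in chr3:139343744-139344043 (plus strand), a start downstream of the outermost one in GENCODE 29.
MRPL32: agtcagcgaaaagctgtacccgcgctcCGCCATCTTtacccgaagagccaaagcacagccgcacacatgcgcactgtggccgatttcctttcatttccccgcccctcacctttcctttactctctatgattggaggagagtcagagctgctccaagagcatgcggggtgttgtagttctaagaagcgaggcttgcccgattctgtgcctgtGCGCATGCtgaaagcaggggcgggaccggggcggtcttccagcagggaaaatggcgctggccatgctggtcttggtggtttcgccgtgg
MRPS30: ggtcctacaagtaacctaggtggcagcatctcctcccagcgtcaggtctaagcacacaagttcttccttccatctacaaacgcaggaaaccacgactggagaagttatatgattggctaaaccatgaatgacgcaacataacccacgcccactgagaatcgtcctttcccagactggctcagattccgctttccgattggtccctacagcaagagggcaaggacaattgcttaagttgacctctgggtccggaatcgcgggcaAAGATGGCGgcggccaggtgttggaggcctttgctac
MRPS22: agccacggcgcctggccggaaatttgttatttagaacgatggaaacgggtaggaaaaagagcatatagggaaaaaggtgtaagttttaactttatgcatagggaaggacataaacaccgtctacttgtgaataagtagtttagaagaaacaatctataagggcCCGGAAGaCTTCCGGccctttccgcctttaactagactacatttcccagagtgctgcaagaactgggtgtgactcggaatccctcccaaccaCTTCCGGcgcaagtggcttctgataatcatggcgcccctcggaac
MRPL46: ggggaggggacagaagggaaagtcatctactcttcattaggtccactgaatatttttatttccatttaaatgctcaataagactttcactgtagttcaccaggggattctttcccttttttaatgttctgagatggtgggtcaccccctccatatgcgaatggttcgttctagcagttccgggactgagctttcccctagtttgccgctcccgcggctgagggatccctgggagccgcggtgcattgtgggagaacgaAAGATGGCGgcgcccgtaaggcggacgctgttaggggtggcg
The 29 members with an ETS core had a median log2 fold change of 0.21 in NFE2L1 and 0.12 in NFE2L1DC, against 0.21 and 0.23 for the 40 without one. The 13 with a YY1 core had medians of 0.44 and 0.29, against 0.20 and 0.15 for the 56 without. The 6 with an NRF1 core had 0.09 and 0.14, against 0.22 and 0.20 for the 63 without. The 9 with an antioxidant response core had 0.42 and 0.31, against 0.21 and 0.15 for the 60 without. Those 9 had a lower median level, 50.1 against 96.1 TPM, and include the widely spread MRPL34, MRPS27 and MRPS35 (SE 0.41, 0.44 and 0.40). Level and GC content were not held constant in these medians. Of the 11 risen members, 9 have a window: 5 hold an ETS core, 3 a YY1 core, 1 an NRF1 core and 1 an antioxidant response core. These are descriptions over members that share libraries, with no test.

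Some values may hold reads of other genes. Exons of 41 of the 78 members overlap those of another gene, 16 on the same and 29 on the opposite strand, and 34 members have at least 1 pseudogene named after them. Of the 11 risen members, 5 overlap no other gene's exons. On the same strand, MRPL33 shares 324 exon bases with BABAM2, and MRPS17 471 with AC092647.5 and 112 with NIPSNAP2. AC092647.5 averaged 0.783 TPM in NFE2L1, 0.708 TPM in NFE2L1DC and 0.494 TPM in control libraries and was not among the genes tested. BABAM2 and NIPSNAP2 did not pass in NFE2L1 (adjusted p = 0.228 and 0.967). The sources used here do not give how the authors assigned such reads or whether the libraries keep the strand.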

How the data were processed

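The deposited table gives TPM per gene for 9 RNA-seq libraries, 3 per group. Its columns sum to between 999983 and 999992. TPM as deposited are relative to a library's total, so a change in abundant genes shifts all others. CASAVA and GRCh38 are named in the submitters' processing notes. Aligner, quantifier, annotation and strandedness were not given in the sources used here. Without read counts the depth is unknown, and no counting interval or floor is given.

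Genes with at least 1 TPM in at least 3 libraries were kept, on a log2(TPM + 1) scale that understates changes of low genes. One model over all 9 libraries, with a mean per group, was fitted with limma 3.58.1 in R 4.3.3 (trended, moderated variances, 3.34 prior degrees of freedom). The 2-sided p-values were adjusted by Benjamini-Hochberg over all 14118 genes tested. The limma step was checked on simulated data. Positions, GC content and transcript length came from GENCODE 29, which matched 57836 of the table's identifiers and all 78 members.

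The members and lists were chosen with earlier results of these data known, so lists have counts and medians and no test of their own. Values by library were given for called members with the smallest p, the extremes of each subunit by fold change and by level, and members whose symbol misplaces them. List symbols ICT1, C7orf30, MRPP3 and C10orf2 matched no row. Alternatives were the pseudocount (0.1 and 5), the filter (none, 5 TPM), median-of-ratios scaling, a GC content and length correction by splines, the replicate number as a block, 2 groups only, and leaving out each library.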

Additional observations from a re-analysis of the deposited data

How the results depend on the processing

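Depth is unknown for TPM, so it cannot be said which low members lack precision for lack of reads. In NFE2L1 against control, the number of members called (11) was 4 with no filter on low values (beside 2.31% of all genes higher), 5 under median-of-ratios scaling (3.84%), 5 with the libraries of the 2 groups only (4.39%), and 1 to 25 when 1 library was left out. The replicate numbers did not pair the libraries: same-numbered libraries correlated between -0.189 and 0.109 in their deviations, over 0.1 in 1 of 9 pairs, and 3 of 9 libraries correlated best with their own number. With the replicate number as a block, 3 members were called in NFE2L1 (beside 4.58% of all genes higher) and 0 in NFE2L1DC (0.779%). In NFE2L1DC against control, the number called (0) was 2 with a filter at 5 TPM (3.75%), 1 under median-of-ratios scaling (0.843%), 9 with the GC content and length correction (3.59%), 1 with that correction and the block (1.88%), and 0 to 18 when 1 library was left out. With control replicate 3 as the only control, chosen after seeing the data, it was 0 in both lines.

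Median-of-ratios scaling gave member medians of 0.031 in NFE2L1, 0.098 in NFE2L1DC and -0.02 between the lines, and moved the median of all genes in NFE2L1 to 0.014, against 0.17 as deposited. Leaving out 1 library gave medians of 0.181 to 0.228 in NFE2L1 and 0.174 to 0.22 in NFE2L1DC, and control replicate 3 alone gave 0.164 and 0.166. With the GC content and length correction, with and without the block, large minus small was -0.084 in NFE2L1, -0.074 in NFE2L1DC and 0.065 between the lines. It was -0.03 in NFE2L1 as reported and 0.035 with control replicate 3 alone. With 1 library left out it was -0.095 to -0.03 in NFE2L1, -0.095 to 0.019 in NFE2L1DC and -0.001 to 0.076 between the lines. Values that changed sign were, in NFE2L1, MRPL14 (0.001 with the GC content and length correction, 0.031 with control replicate 3 alone), MRPL54 (0.119 and 0.032) and MRPS35 (-0.137 with control replicate 3 alone). In NFE2L1DC they were MRPL54 (0.005 with that correction), MRPS27 (-0.68 to 0.141 with 1 library left out, 0.208 with control replicate 3 alone) and MRPS33 (-0.278 to 0.003 and 0.027). None of these 5 genes was called in the fit reported. The causes were not tested.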
